A study of Homo sapiens with 4 samples.

Results

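In MHCC97H cells, 56 protein-coding genes were close to silent in control cells and were measured at 2 CPM or more after knockdown of UBXN1, a ubiquitin-binding UBX-domain protein. The genes were selected on the level itself. A gene entered when it was under 0.5 CPM (the share of its library's counts, scaled to counts per 1e6) in both shCon libraries and at 2 CPM or more in both shUBXN1 libraries, and symbols starting with ZNF, H1-, H2, H3 or H4 were left out. Of the 61541 genes in the table, 19967 are protein-coding, and 6729 of these met the shCon limit. The 56 genes are 0.832% of the 6729. Because the comparison of shUBXN1 with shCon chose them, their levels and folds are a description and carry no test.

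MHCC97H is an established human hepatocellular carcinoma (HCC) line. The 4 libraries are 2 of control cells (shCon) and 2 of cells with UBXN1 shRNA (shUBXN1), all from the same line with no further treatment named. The methods describe lentiviral shRNA in stably infected cells and call the control shRFP, where the sample labels write shCon. Which UBXN1 shRNA was sequenced and whether the replicates were separate cultures are not given in the sources used here, so an effect of a single shRNA cannot be told apart from an effect of UBXN1 loss, and the spread between replicates may be technical.

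The totals were 23373700 to 27380508 counts per library, at which 3 counts correspond to 0.110 to 0.128 CPM. UBXN1 had 1788 and 1817 counts in shCon and 416 and 433 in shUBXN1, a log2 fold change of -2.03 (adjusted p = 9.98e-10, edgeR's quasi-likelihood test). Replicates of both groups differed by more than counting noise, and none of the libraries duplicated another. Summed over the hepatocyte or HCC markers, the level was 4406 and 4527 CPM in shCon and 3694 and 4095 CPM in shUBXN1, carried by KRT8 and KRT18, with 11 of 12 markers at 1 CPM or more in both shCon libraries and 9 of 12 in both shUBXN1 libraries. In bulk RNA, more cells that express a gene and more RNA of that gene per cell cannot be told apart, and a level of 2 CPM may come from many cells or few.

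Many genes of a differentiated cell are kept silent by repressive chromatin and by the absence of the activators that their promoters need. Genes for synapses, muscle, the retina and the matrix belong to this silent set in hepatocytes and their tumors, and low-level transcription from such loci is common in cancer cell lines. Messenger RNA of a few CPM lies far below the level of housekeeping genes, and whether it yields protein cannot be read from RNA.

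The RPE65, ANXA8L1, IGFN1, CYP2E1 and SARDH promoters belong to genes with a high CPM in shUBXN1, not corrected for transcript length, that have an entry in the RefSeq promoter table. The 100 bases before each RefSeq start site are given here to show how these start regions differ. C2CD4C is added as a CG-rich contrast. Sequences are from RefSeq on GRCh38.p14, 5′ to 3′ on the strand of the gene, with each CG dinucleotide in capitals.
RPE65, chr1:68449955-68450054, minus strand: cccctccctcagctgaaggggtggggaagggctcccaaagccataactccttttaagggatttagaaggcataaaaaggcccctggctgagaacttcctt
ANXA8L1, chr10:46375676-46375775, plus strand: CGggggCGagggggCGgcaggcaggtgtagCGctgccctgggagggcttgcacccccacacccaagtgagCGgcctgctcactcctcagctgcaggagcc
IGFN1, chr1:201190724-201190823, plus strand: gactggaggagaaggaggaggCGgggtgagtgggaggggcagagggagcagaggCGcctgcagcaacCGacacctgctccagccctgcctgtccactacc
CYP2E1, chr10:133527263-133527362, plus strand: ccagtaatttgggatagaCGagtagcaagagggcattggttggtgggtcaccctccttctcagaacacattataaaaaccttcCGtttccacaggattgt
SARDH, chr9:133739956-133740055, minus strand: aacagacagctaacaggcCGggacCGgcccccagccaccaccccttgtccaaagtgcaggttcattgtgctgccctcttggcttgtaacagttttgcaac
C2CD4C, chr19:409148-409247, minus strand: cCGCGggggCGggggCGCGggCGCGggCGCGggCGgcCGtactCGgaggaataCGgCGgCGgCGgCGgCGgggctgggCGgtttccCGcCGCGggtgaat
The RPE65 window holds 0 CG dinucleotides, the CYP2E1 and SARDH windows 2 each, IGFN1 3, ANXA8L1 5 and C2CD4C 22. Over the 250 bases before the start, the counts were 0 for RPE65, 4 for CYP2E1 and IGFN1, 7 for SARDH, 8 for ANXA8L1 and 34 for C2CD4C, against a median of 11 over the 35116 windows of the table. The next genes by CPM with an entry, SLC22A4, GPRIN2, ATP6V0A4 and ACHE, held 25, 27, 2 and 18. The windows shown therefore do not stand for the set, and C2CD4C is not its only CG-rich gene. The TATA motif TATAAA, searched on both strands, was in the CYP2E1 window and in 10.7% of all windows, and GGGCGG, the core of the GC box, was in the ANXA8L1 and C2CD4C windows and in 42.6% of all. The 2 motifs do not overlap in their letters. Only 40 of the 56 genes (71.4%) have an entry in the table, so no promoter property is given for the whole set.

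In shUBXN1 the genes were low but well counted. Their mean CPM in shUBXN1 ran from 2.12 to 13.0 with a median of 3.12, and 26 of the 56 stayed under 3 CPM. Counts pooled over both shCon libraries ran from 0 to 25 with a median of 13.5. Summed over the 56 genes, the level was 14.3 and 14.1 CPM in shCon and 235 and 213 CPM in shUBXN1. The fold of shUBXN1 over shCon, from counts pooled within each group and divided by the pooled totals, ran from 4.42 to 58.3 with a median of 14.6 over the 54 genes that had any shCon count.

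**Figure D1:**
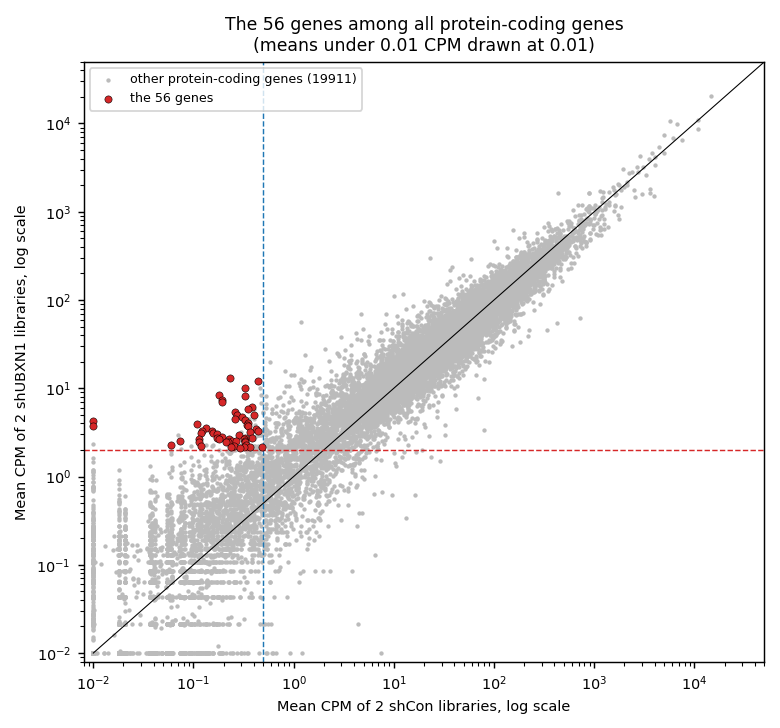
Each point is a protein-coding gene, with the mean CPM of the 2 shCon libraries on the x axis and of the 2 shUBXN1 libraries on the y axis, both on log scales, dashed lines at 0.5 and 2 CPM and a solid line of equal levels. The 56 selected genes (red) lie between 2.12 and 13.0 CPM on the y axis, at the left edge of the cloud of the 19911 other genes (gray).

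The shUBXN1 replicates gave similar levels for most of the genes. The level was higher in replicate 1 for 33 genes and in replicate 2 for 23, and 6 genes differed by more than 1.5-fold between the replicates. ENSG00000287725 differed most, with 6.10 and 2.42 CPM, followed by SMIM38 with 4.52 and 2.10 CPM, and both lie in the same stretch of chromosome 11. The lowest shUBXN1 library was above the highest shCon library for every gene, which the limits of the selection fix.

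The same limits with the groups swapped found 9 protein-coding genes, 0.144% of the 6255 that were under 0.5 CPM in both shUBXN1 libraries. These were SLPI, SYTL5, EBF3, PDE4B, OLFML3, CACNA2D1, IL7R, ASB4 and TNS4. Most near-silent genes stayed near-silent, since 6057 of the 6729 were under 0.5 CPM in all 4 libraries and 3041 of them had 0 counts throughout. At a limit of 1 CPM in both shUBXN1 libraries 158 genes would have been found.

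All 56 genes passed edgeR's filter on low counts, which most of them could do only through the shUBXN1 libraries. In the fit over all 16863 genes tested, the median log2 fold change of the 56 was 3.82, and it was the same with the 2 genes without shCon counts set at their lower bounds. All 56 were called higher at an adjusted p under 0.05, and also by the looser pair of an unadjusted p under 0.05 with a fold of 2. At the first threshold 28.0% of all genes tested and 29.7% of the 13511 protein-coding genes tested were called higher and 32.2% of the protein-coding genes lower, and at the second 10.6% of the protein-coding genes were called higher. The selection used this contrast, so nothing is read from the count of 56. The median log2 fold change was -0.016 over the protein-coding genes tested.

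The limits cut through a continuous range of levels. Just inside the shUBXN1 limit, MAST1, RASGRF1, TRIM46 and SPEG each had a lower shUBXN1 value of 2.01 CPM and KCNA7 of 2.04 CPM. Just outside it, GPR173 was at 2.05 and 1.97 CPM in shUBXN1, ANKRD37 at 1.96 and 2.29, IQSEC3 at 2.52 and 1.93, RASD2 at 3.37 and 1.93, and ADGRE1 at 2.52 and 1.93. At the shCon limit, ANXA8 and FAM131C reached 0.494 CPM in a shCon library, AMN 0.478, and ACHE and F10 0.475. IL1RAPL1, at 0.511 and 0.411 CPM in shCon and 9.81 and 10.3 CPM in shUBXN1, exceeded the shCon limit by less than 1 count, as did CGB7 (higher shCon value 0.511 CPM), NXN (0.518), ENSG00000248751 (0.520) and KCND1 (0.535).

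**Figure D2:**
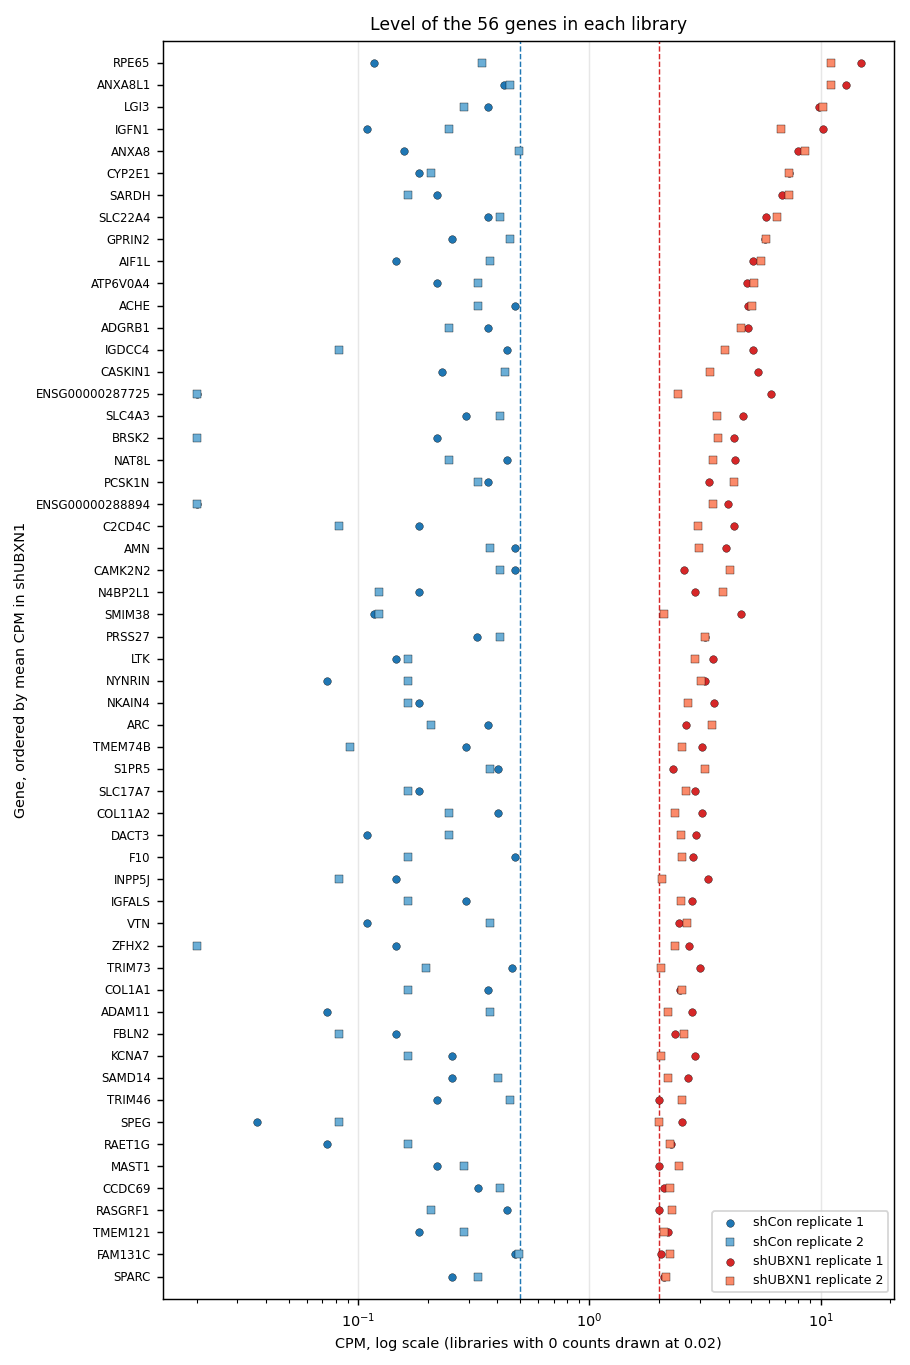
CPM on a log scale (x axis) in each of the 4 libraries for each of the 56 genes (y axis), ordered by mean CPM in shUBXN1, with circles for replicate 1, squares for replicate 2, blue for shCon, red for shUBXN1 and dashed lines at the limits of 0.5 and 2 CPM. RPE65 stands at the top, with 15.0 and 11.1 CPM in shUBXN1, and 4 genes have at least 1 shCon library at 0 counts.

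The genes were sorted by role from general knowledge after their values were known, and 41 of the 56 received a role. The largest group held 16 genes known from neurons, followed by 6 receptors and signaling genes, 5 genes of liver, plasma or metabolism, 5 of transport, 4 of the matrix, 3 of muscle or the retina, and the annexins ANXA8 and ANXA8L1. The grouping is an aid to description and was not tested. Within each gene, replicate 1 is given before replicate 2 throughout.

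Liver, plasma and metabolic genes were the group closest to the tissue of origin of these cells. CYP2E1, the cytochrome P450 that oxidizes ethanol and paracetamol in hepatocytes, lies on the plus strand of chromosome 10 (133520406 to 133561220, GRCh38). CYP2E1 had 5 and 5 counts in shCon and 170.6 and 170.4 in shUBXN1 (0.183 and 0.206 CPM, then 7.28 and 7.29 CPM). This was a 37.6-fold higher level (95% counting interval 20.2 to 79.2), with the replicates of each group almost equal. SARDH, the mitochondrial sarcosine dehydrogenase of one-carbon metabolism, was at 0.219 and 0.165 CPM in shCon and at 6.79 and 7.32 CPM in shUBXN1 (36.4-fold, 19.6 to 76.7).

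Genes of secreted plasma proteins were lower in level than these enzymes. F10, coagulation factor X, had 13 and 4 counts in shCon and 66 and 59 in shUBXN1 (8.12-fold, 4.87 to 14.4). VTN, the plasma and matrix adhesion protein vitronectin, had 3 and 9 counts in shCon and 57 and 62 in shUBXN1 (11-fold, 6.04 to 21.8). IGFALS, which holds insulin-like growth factors in their serum complex, had 8 and 4 counts in shCon and 65 and 58 in shUBXN1 (11.3-fold, 6.25 to 22.5). All 3 genes stayed under 3 CPM in both shUBXN1 libraries.

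Most hepatocyte markers fell, whereas these 5 genes were selected for a higher level. Of the 12 hepatocyte or HCC markers, 8 were called lower and 2 (SERPINA1 and KRT18) higher in edgeR's quasi-likelihood test. Over all protein-coding genes tested, 32.2% were called lower and 29.7% higher. ALB, the major plasma protein of the liver, was at 17.5 and 16.6 CPM in shCon and at 4.44 and 4.79 CPM in shUBXN1 (log2 fold change -1.97, adjusted p = 5.49e-08, edgeR). FGB, a fibrinogen chain, fell by 4.02 on the log2 scale (adjusted p = 3.80e-08, edgeR).

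Neuronal genes made up the largest group. Their summed level was 4.87 and 4.59 CPM in shCon and 62.7 and 62.3 CPM in shUBXN1, and their folds ran from 6.495 to 33.7 with a median of 11.9. LGI3, a secreted leucine-rich repeat protein of the nervous system, had the most counts of the group, with 10 and 7 counts in shCon and 231 and 239 in shUBXN1 (0.365 and 0.288 CPM, then 9.86 and 10.2 CPM). This level was 30.5-fold higher (95% counting interval 18.9 to 52.9).

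Several of the genes act at synapses. ACHE, the acetylcholinesterase that ends cholinergic transmission, was at 0.475 and 0.329 CPM in shCon and at 4.86 and 5.05 CPM in shUBXN1 (12.2-fold, 7.79 to 20.1). SLC17A7, the vesicular glutamate transporter VGLUT1, was at 0.183 and 0.165 CPM in shCon and at 2.86 and 2.61 CPM in shUBXN1 (15.7-fold, 8.02 to 35.1). ARC, the activity-regulated cytoskeletal protein of dendrites, was at 0.365 and 0.206 CPM in shCon and at 2.60 and 3.38 CPM in shUBXN1 (10.3-fold, 6.04 to 18.9). Each of these genes was low in both shCon libraries and high in both shUBXN1 libraries, and the replicates of shUBXN1 lay within 1.5-fold of each other. ADGRB1, an adhesion G protein-coupled receptor also known as BAI1, had 10 and 6 counts in shCon and 114 and 106 in shUBXN1 (15.2-fold). CASKIN1, a scaffold that binds the synaptic kinase CASK, had 6.28 and 10.4 counts in shCon and 125.9 and 77.7 in shUBXN1 (13.4-fold).

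Kinase and Ras signaling genes of neurons were part of the group. BRSK2, a kinase of neuronal polarity, had 6 and 0 counts in shCon and 99 and 84 in shUBXN1 (33.7-fold, 15.2 to 93.0), so its control level rests on a single library. The fitted log2 fold change of BRSK2 was 4.94, and 4.03 without shCon replicate 2. CAMK2N2, an inhibitor of the calcium/calmodulin kinase CaMKII, had 13 and 10 counts in shCon and 60 and 95 in shUBXN1 (7.44-fold, 4.78 to 12.1), and its replicates differed by more than 1.5-fold. MAST1, a microtubule-associated kinase, and RASGRF1, an exchange factor for Ras, stood close to the lower limit, at 2.01 and 2.44 CPM and at 2.01 and 2.27 CPM in shUBXN1.

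The other neuronal genes lay between these levels. GPRIN2, a protein linked to G protein-regulated neurite outgrowth, had 7 and 11 counts in shCon and 134 and 136 in shUBXN1 (16.6-fold). NAT8L, the enzyme that makes N-acetylaspartate, had 12 and 6 counts in shCon and 100 and 80 in shUBXN1 (11-fold). PCSK1N, the proSAAS inhibitor of prohormone convertase 1, had 10 and 8 counts in shCon and 77 and 99 in shUBXN1 (10.8-fold). NKAIN4, a protein that interacts with the sodium pump, ADAM11, a catalytically inactive member of the ADAM family, and TRIM46, which organizes microtubules of the axon, were 17.6-, 11.6- and 6.89-fold higher.

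Markers that define neurons were near 0 or not called. RBFOX3, the neuronal nuclear antigen NeuN, had 0 or 1 count in each of the 4 libraries, and MAP2, TUBB3 and SNAP25 were not called (adjusted p = 0.121, 0.413 and 0.496, edgeR). The summed level of the 4 neuronal markers was 116 and 125 CPM in shCon and 132 and 144 CPM in shUBXN1, carried by TUBB3 and MAP2. In a list of 78 neuronal and synaptic genes written from general knowledge, LGI3 is the only member. Without LGI3, 46 genes were under 0.5 CPM in both shCon libraries, and 40 were so in both groups. Of the 36 other genes of the list that were tested, 16 were called higher (44.4%, against 29.7% of protein-coding genes) and 6 lower, with a median log2 fold change of 0.70. L1CAM, a neural cell adhesion molecule, had the largest rise of the list (log2 fold change 5.47) and CPLX2, a regulator of vesicle release, the largest fall (-2.53).

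**Figure D3:**
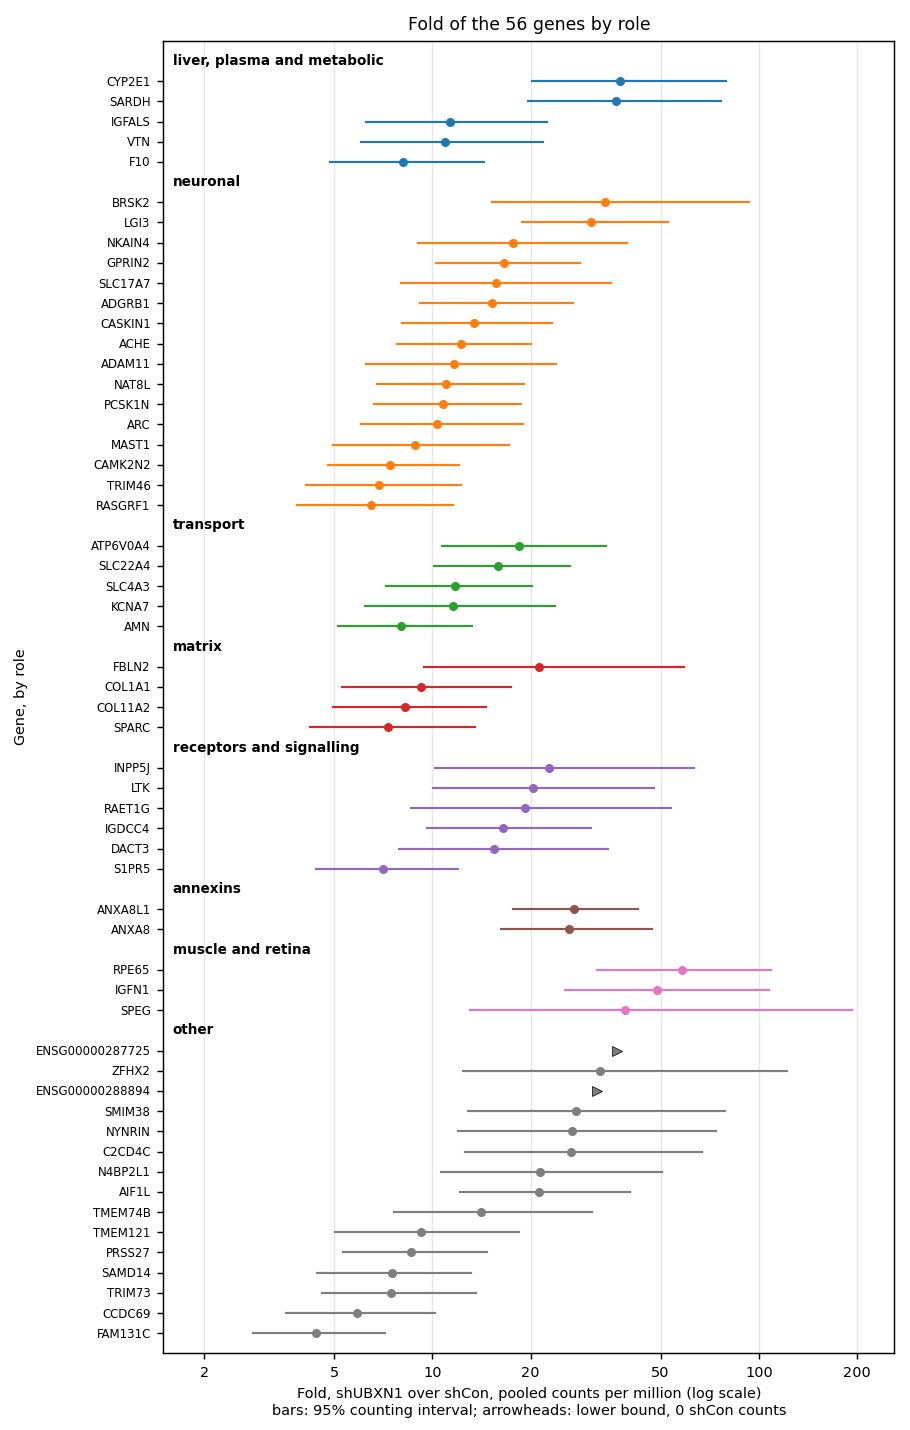
Fold of shUBXN1 over shCon (x axis, log scale) for each of the 56 genes (y axis), by role, from counts pooled within each group; points are folds, bars 95% counting intervals and arrowheads lower bounds for the 2 genes with 0 shCon counts. The folds run from 4.42 for FAM131C to 58.3 for RPE65, and the intervals of most genes within a role overlap.

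Over the 54 genes with shCon counts, genes of muscle and the retina had the largest folds. RPE65, the isomerase of the retinal visual cycle, lies on the minus strand of chromosome 1 (68428822 to 68449954, GRCh38), had 3.22 and 8.34 counts in shCon and 350.7 and 259.3 in shUBXN1, and was 58.3-fold higher (95% counting interval 31.9 to 109). Its fitted log2 fold change was 5.81 (standard error 0.33), and was 5.19 without shCon replicate 1 and 6.73 without shCon replicate 2. IGFN1, an immunoglobulin and fibronectin domain protein of skeletal muscle, had 3 and 6 counts in shCon and 239 and 158 in shUBXN1 (48.7-fold, 25.4 to 107). Its fitted value moved from 5.47 to 4.98 without shCon replicate 1 and to 6.11 without shCon replicate 2. SPEG, a kinase of striated muscle, had 1 and 2 counts in shCon and 59 and 46.9 in shUBXN1, which gave 39.0-fold with an interval of 13.0 to 192. The interval is wide because the control of SPEG rests on 3 counts in all.

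The enzymes on either side of RPE65 in the visual cycle moved the other way. In a list of 50 retinal and visual cycle genes, 38 genes other than RPE65 were near-silent in shCon and 36 in both groups. Of the 13 others tested, 4 were called higher and 4 lower (30.8% higher, median log2 fold change 0.13). Over all protein-coding genes tested, 29.7% were called higher. LRAT, which makes the ester that RPE65 uses, was lower (1.94 and 2.55 CPM, then 1.02 and 0.813 CPM, adjusted p = 0.00593, edgeR), and so was RDH5, the dehydrogenase after it (log2 fold change -1.16, adjusted p = 0.00732, edgeR). GUCA1B, a guanylate cyclase activator of photoreceptors, was higher (log2 fold change 2.02). Of 19 other sarcomere and muscle genes tested, 7 were called higher and 6 lower (36.8% higher, against the same 29.7%, median 0.13). Among them were the muscle calcium pump gene ATP2A1 (3.2) on the higher side and TTN (-2.52) on the lower.

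Transport genes reached intermediate levels. SLC22A4, a carrier of ergothioneine and carnitine, had 10 and 10 counts in shCon and 136 and 152 in shUBXN1 (15.9-fold, 10.1 to 26.4). ATP6V0A4, a subunit of the proton pump of kidney and inner ear, had 6 and 8 counts in shCon and 113 and 120 in shUBXN1 (18.4-fold, 10.7 to 34.1). SLC4A3, an anion exchanger of heart and brain, had 8 and 10 counts in shCon and 108 and 83 in shUBXN1 (11.7-fold, 7.22 to 20.2). For these carriers the shCon replicates were within 3 counts of each other. AMN, the partner of cubilin in the uptake of vitamin B12, was 8.03-fold higher (5.16 to 13.3), and KCNA7, a voltage-gated potassium channel, was 11.5-fold higher (6.22 to 23.8) at 2.86 and 2.04 CPM in shUBXN1.

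KCNA7 was the only member among 87 voltage-gated sodium, calcium and potassium channel subunits. Without KCNA7, 60 of them were near-silent in shCon and 54 in both groups. Of the 32 others tested, 16 were called higher (50%, against 29.7% of the protein-coding genes tested) and 5 lower. Their median log2 fold change was 0.58. SCN3B, an auxiliary sodium channel subunit, had the largest rise (log2 fold change 3.96, at 1.83 and 1.5 CPM in shUBXN1), and CACNA2D1, an auxiliary calcium channel subunit, the largest fall (-4.0).

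Matrix genes were all close to the lower limit. COL1A1, the main chain of type I collagen, had 10 and 4 counts in shCon and 58 and 59 in shUBXN1 (9.23-fold, 5.29 to 17.4). COL11A2, a chain of the cartilage collagen XI, had 11 and 6 counts in shCon and 72 and 55 in shUBXN1 (8.25-fold). FBLN2, the basement membrane protein fibulin-2, had 4 and 2 counts in shCon and 55 and 60 in shUBXN1 (21.2-fold, 9.43 to 58.9). The interval of FBLN2 is wide because its control rests on 6 counts in all. SPARC, a collagen-binding matrix protein, was at 0.256 and 0.329 CPM in shCon and at 2.09 and 2.14 CPM in shUBXN1 (7.29-fold).

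Of the other 5 fibroblast or stellate markers 2 were called lower and 3 did not pass the filter. COL1A2, which encodes the partner chain of COL1A1 in type I collagen, was at 0.329 and 0.0411 CPM in shCon and at 0.469 and 0.257 CPM in shUBXN1 and was not tested. LUM and DCN, small proteoglycans of connective tissue, were called lower (log2 fold changes -1.06 and -3.16). The sum of the 6 fibroblast or stellate markers was 32.2 and 32.1 CPM in shCon and 18.2 and 19.9 CPM in shUBXN1.

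Receptor and signaling genes included the receptor tyrosine kinase gene LTK, with 4 and 4 counts in shCon and 80 and 67 in shUBXN1 (20.3-fold, 10 to 47.9). S1PR5, a sphingosine-1-phosphate receptor, was at 0.402 and 0.370 CPM in shCon and at 2.30 and 3.17 CPM in shUBXN1 (7.07-fold). RAET1G, a ligand of the natural killer receptor NKG2D, had 2 and 4 counts in shCon and 52.5 and 52 in shUBXN1 (19.2-fold, 8.59 to 53.9). Of the 50-base stretches of its transcript, 16.2% occur in other genes such as its neighbor ULBP2. ULBP2 was itself called higher (log2 fold change 1.46, adjusted p = 5.22e-06, edgeR), and how shared reads were divided is not given. LTK, S1PR5 and RAET1G encode cell surface proteins of unrelated families. IGDCC4, an immunoglobulin superfamily receptor, had 12 and 2 counts in shCon and 119 and 90 in shUBXN1 (16.5-fold, 9.61 to 30.7). Its fitted log2 fold change, 3.94, was 5.59 without shCon replicate 1 and 3.24 without shCon replicate 2. INPP5J, a phosphoinositide 5-phosphatase, was 22.8-fold higher and DACT3, an antagonist of Wnt signaling, 15.4-fold higher.

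Endothelial and immune markers were also examined. The 4 endothelial markers summed to 47.2 and 48.3 CPM in shCon and 97.8 and 99.6 CPM in shUBXN1, carried by KDR and PECAM1, while CDH5, which defines endothelium, had 3 and 6 counts in shCon and 0 in shUBXN1. The 5 immune markers summed to 81.1 and 86.1 CPM in shCon and 77.2 and 70.9 CPM in shUBXN1, carried by CD68, and CD3E had 0 counts in all 4 libraries. The part of other cell types in the levels of the 56 genes was not tested beyond these values.

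The annexins ANXA8L1 and ANXA8 are near-identical copies on chromosome 10, and their separate values are uncertain. Annexins are calcium-dependent membrane-binding proteins. Of the 50-base stretches of their transcripts, 86.8% of those of ANXA8L1 and 83.2% of those of ANXA8 occur in another gene as well. ANXA8L1 (46375627 to 46391784, plus strand) had 11.7 and 11 counts in shCon and 300.3 and 258.9 in shUBXN1, and ANXA8 (47460162 to 47484158, minus strand) had 4.33 and 12 in shCon and 186.9 and 200.6 in shUBXN1. The folds were 27.2 (17.7 to 42.7) and 26.2 (16.2 to 47.2). The fitted log2 fold change of ANXA8, 4.63, was 3.97 without shCon replicate 1 and 5.69 without shCon replicate 2. Both were low in shCon and high in shUBXN1, but how the deposited counts divided shared reads between them is not given.

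Read sharing also limits other genes. ENSG00000287725 and ENSG00000288894 had 0 counts in both shCon libraries and were at least 36.7-fold and at least 31.8-fold higher, against a floor of 3 counts in each shCon library. All exon bases of ENSG00000287725 lie within exons of TPCN2 or SMIM38 on the same strand, and 98.1% of those of ENSG00000288894 lie within exons of DCAF7 or TACO1. TPCN2 was not called (log2 fold change -0.0029, adjusted p = 0.983, edgeR), at 22.2 and 22.2 CPM in shCon and 22.7 and 24.2 CPM in shUBXN1. DCAF7 was not called either (0.13, adjusted p = 0.155, edgeR), and TACO1 was lower (-0.72, adjusted p = 1.28e-05, edgeR). Reads of these 2 genes cannot be told apart from reads of the genes they overlap, and SMIM38, with 52.7% of its exon bases shared, carries the same doubt. TRIM73 shares 93.6% of its 50-base stretches with copies such as TRIM74.

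Antisense genes covered 20% or more of the exon bases of 3 further genes. For SAMD14 (29.0%) the antisense gene PDK2 was itself higher (log2 fold change 1.65, adjusted p = 6.45e-08, edgeR), at 7.08 and 6.496 CPM in shCon and 23.4 and 21.9 CPM in shUBXN1. For TMEM74B (27%) the antisense gene PSMF1 was lower (-0.40). For CYP2E1 (25.4%) the antisense genes are SYCE1, which had 0 to 3 counts per library, and ENSG00000278518, whose level was not examined. Whether the counting used strand is not given in the sources used here, so reads of SAMD14 and PDK2 cannot be told apart.

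Genes with other or less known roles completed the set. AIF1L, an actin-bundling protein related to AIF1, had 4 and 9 counts in shCon and 120 and 129 in shUBXN1 (21.1-fold, 12.1 to 40.3), and its fitted log2 fold change of 4.29 was 5.05 without shCon replicate 2. C2CD4C had 5 and 2 counts in shCon and 99 and 69 in shUBXN1 (26.5-fold, 12.6 to 66.9), with a fitted log2 fold change of 4.59 that was 5.27 without shCon replicate 1. N4BP2L1 had 5 and 3 in shCon and 67 and 88 in shUBXN1 (21.4-fold, 10.6 to 50.4). ZFHX2, a zinc finger homeobox transcription factor, had 4 and 0 counts in shCon and 63.2 and 55.0 in shUBXN1 (32.6-fold, 12.4 to 122). PRSS27, a membrane-anchored serine protease, was 8.60-fold higher, NYNRIN 26.7-fold, TMEM121 9.20-fold and CCDC69 5.87-fold. FAM131C, at 0.475 and 0.494 CPM in shCon and 2.05 and 2.22 CPM in shUBXN1, had the smallest fold of the set (4.42, 2.83 to 7.15).

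Levels between genes can be compared only per length of transcript. On the TPM scale (CPM corrected for the deposited gene lengths) the mean level in shUBXN1 ran from 0.427 for SPEG to 11.2 for ANXA8L1, with a median of 2.23. The highest after ANXA8L1 were RPE65 at 10.2 TPM, CYP2E1 at 7.74, ANXA8 at 7.73 and PCSK1N at 7.44. Long genes moved down the order on this scale, with IGFN1 at rank 4 by CPM but at rank 39 with 1.46 TPM, while the short PCSK1N moved up to rank 5. Limits of 0.5 and 2 placed on TPM instead of CPM found 43 genes, of which 20 were among the 56.

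The transcripts of the 56 genes were rich in G and C. The median GC content of the canonical transcript was 61.1% (quartiles 55.2% and 64.8%, range 38.0% to 74.2%), against 50.3% for the 6729 near-silent genes and 49.1% for all protein-coding genes. A GC content of 60% or more was found in 30 of the 56 genes (53.6%) and in 16.5% of the near-silent genes. RPE65, at 38.0%, was the lowest of the 56 and PCSK1N, at 74.2%, the highest. Among near-silent genes under 40% GC, 2 of 796 met the limits (0.251%), and at 40% to 50% 2 of 2504 did (0.0799%). At 50% to 60% 22 of 2320 met them (0.948%), and at 60% or more 30 of 1109 (2.71%). The canonical transcripts of the 56 had a median of 10 exons, those of the near-silent genes 5 and those of all protein-coding genes 8. Their median lengths were 3157, 2124 and 2888 bases in the same order. The limits on CPM do not correct for length.

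Other genes moved with GC content as well. In 5 equal groups of the protein-coding genes tested, ordered from low to high GC, the median log2 fold change was -0.07, -0.07, -0.03, 0.01 and 0.15, and the share called higher was 24.3%, 23.9%, 27.4%, 32.8% and 39.8%. Of the 56 genes, 35 were in the highest group. When the GC trend was removed library by library, an alternative chosen after the data were seen, the limits found 45 genes, 44 of them among the 56, and the median log2 fold change of the 56 was 3.60. ACHE, TRIM46, AMN, SPEG, TMEM121, FAM131C, INPP5J, MAST1, CAMK2N2, KCNA7, RASGRF1 and TRIM73 then fell outside the limits, and IL1RAPL1 came in. The fitted log2 fold change of genes rich in GC fell with the trend removed, from 3.34 to 2.93 for PCSK1N, from 3.82 to 3.54 for ADGRB1, from 3.70 to 3.41 for CASKIN1 and from 4.83 to 4.67 for LGI3. Those of RPE65 (5.81 and 5.87) and CYP2E1 (5.12 and 5.08), whose transcripts have 38.0% and 51.3% GC, moved less.

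**Figure D4:**
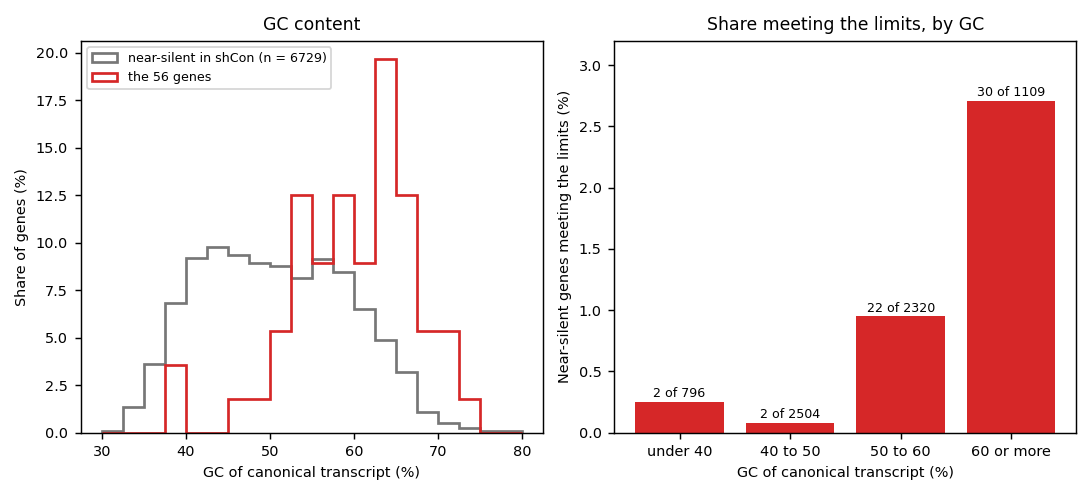
Left, the share of genes (y axis, %) by GC content of the canonical transcript (x axis, %) for the 56 genes (red) and all 6729 genes near-silent in shCon (gray); right, the share of near-silent genes that met the limits (y axis, %) in 4 bands of GC content. The median is 61.1% for the 56 genes and 50.3% for the near-silent genes, and the share meeting the limits is 2.71% in the band of 60% or more.

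The genes were spread over 20 chromosomes, with the most, 6, on chromosome 19. Another of the 56 lay within 1 Mb of 20 genes and within 100 kb of 4. COL1A1 and SAMD14 have start sites 71.5 kb apart, and ENSG00000287725 and SMIM38 82.6 kb. ANXA8L1 and GPRIN2 lie 181 kb apart, ADGRB1 and ARC 165 kb, and SPEG and SLC4A3 193 kb.

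The nearest protein-coding gene on each side of every member, leaving out members, was examined next, since the selection did not use these genes. There were 106 such neighbors, 71 of which passed the filter. Of the 71, 26 were called higher (36.6%, against 29.7% of the protein-coding genes tested) and 18 lower, with a median log2 fold change of 0.11 against -0.016. With start sites within 100 kb, 23 of 60 were higher, and among those that share no base with the member's gene body 22 of 59. With a fold of 2 at an unadjusted p under 0.05, 11 of the 71 were higher (10.6% of the protein-coding genes tested were). The fitted log2 fold change was above 0 for 41 of the 71.

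A few neighbors rose strongly. SHC2, an adaptor of neuronal receptor kinases 51.9 kb from C2CD4C, was at 0.913 and 0.987 CPM in shCon and at 14.6 and 13.7 CPM in shUBXN1 (log2 fold change 3.81, adjusted p = 2.49e-09, edgeR). BIRC7, an inhibitor of apoptosis 36.8 kb from NKAIN4, was at 11.8 and 8.34 CPM in shCon and at 124 and 95.2 CPM in shUBXN1 (3.35, adjusted p = 2.19e-10, edgeR). PSCA, a glycolipid-anchored surface protein 55.8 kb from ARC, was at 2.41 and 2.30 CPM in shCon and at 16.9 and 14.7 CPM in shUBXN1 (2.66, adjusted p = 1.19e-08, edgeR). In these pairs the neighbor stood above 0.5 CPM in shCon already, which kept it out of the selection. SELENOM near INPP5J (1.55), PDK2 near SAMD14 (1.65), BMP1 near LGI3 (0.96) and CTSH near RASGRF1 (0.89) were higher too.

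Other neighbors fell. ALDH16A1, 10.9 kb from SLC17A7, was lower (log2 fold change -1.34, adjusted p = 1.78e-08, edgeR), as were POM121C near TRIM73 (-0.74) and MYEOV near SMIM38 (-0.76). DBH, the enzyme that makes noradrenaline and a neighbor of SARDH, had 0 counts in both shCon libraries and 19 and 16 in shUBXN1, at least 6.44-fold higher. F7, coagulation factor VII, lies 17.0 kb from F10 and was not called (0.584 and 0.576 CPM in shCon, 0.299 and 0.171 CPM in shUBXN1, adjusted p = 0.0632, edgeR), whereas F10 stood higher.

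Other lists of genes that are often silent in liver cells did not move alike. Of 20 cancer-testis and germline genes tested, 2 were called higher and 9 lower (median log2 fold change -0.32), and without shUBXN1 replicate 2 the higher count was 5. TEX14, a gene of germ cell bridges, was higher (5.54), and SSX1 was lower (24.4 and 22.2 CPM, then 1.54 and 1.80 CPM). Of 42 homeobox and neural crest transcription factors tested, 12 were called higher and 10 lower, and the higher count was 7 without shCon replicate 1, 6 without shCon replicate 2 and 7 without shUBXN1 replicate 1. Of 16 epidermal and squamous genes tested, 5 were called higher (31.2%) and 4 lower. The share called higher was 28.6% for the homeobox list and 10% for the cancer-testis list. Among all protein-coding genes tested it was 29.7%, so the homeobox and epidermal shares were near the background. None of the 56 genes is in these lists, where 38, 68 and 39 genes stayed under 0.5 CPM in all libraries. The lists are not complete, since ZFHX2, a homeobox factor among the 56, is not in the homeobox list.

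Lists of inducible and immune genes also held none of the 56. Of 40 interferon-stimulated genes tested, 22 were called higher (55.0%) and 10 lower, and of 35 NF-kappaB target genes 23 (65.7%) and 4. Over all protein-coding genes tested, 29.7% were called higher and 32.2% lower. Of 31 immune cell surface and signaling genes tested, 16 were called higher (51.6%) and 5 lower, with 82 of the 104 genes near-silent in shCon and 71 in both groups. CD7 (log2 fold change 3.61) and CD33 (3.43) had the largest rises of that list, at 2.72 CPM or more and at 0.584 CPM or more in shCon, which kept them out of the selection.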

How the data were processed

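RNA of 4 MHCC97H libraries was analyzed. The authors deposited expected counts per gene with 2 decimals, not normalized, with a gene length in bases per gene. The submitters' processing notes name HISAT2 2.0.4, StringTie 1.3.0 and GRCh37, whereas the study's methods name GRCh38, so the build of the counts is uncertain. The labels and the methods also name different library kits. The counting strand is not given in the sources used here. Of the 61541 Ensembl IDs, 61369 (99.7%) matched GENCODE release 44 on GRCh38, which gave symbols, biotypes, positions and canonical transcripts.

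CPM used the column totals and TPM the deposited lengths. For the fit, counts were rounded to whole numbers, passed through filterByExpr, scaled by TMM factors and given to the quasi-likelihood functions (glmQLFit, glmQLFTest) of edgeR 4.0.16, with Benjamini-Hochberg adjustment over all genes tested, without a block. The study's methods name limma; a count model was used because the values are counts. The script was tested on simulated data. Intervals of pooled folds are exact binomial intervals at 95% and cover counting error only.

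The members, gene lists and tests were chosen with earlier results of these data known. Named genes were the 25 members highest by mean CPM in shUBXN1, the 5 nearest to each limit on either side, members in a list, uncertain members and the 10 called neighbors of smallest p; any further gene was picked with its values in view. Alternatives were DESeq2 1.42.0, total count scaling, other filters, a replicate block, other limits and leaving out each library, and removal of GC trends was added after the data were seen.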

Additional observations from a re-analysis of the deposited data

How the results depend on the processing

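The number of genes found follows the limits. With shCon under 0.25 CPM 19 genes were found and under 1 CPM 150, with shUBXN1 at 1 CPM or more 158 and at 4 CPM or more 13, and with the groups swapped 9. TMM-scaled CPM gave 49 genes. Leaving out a library, which drops a condition from the limits, gave 66 to 82. The median log2 fold change of the members, 3.82, was 3.91 with total count scaling, 3.60 after removal of the GC trend, 3.38 with at least 10 counts in every library, where only 4 members are left, and 3.76 to 3.93 with each library left out. Against 12 homeobox and neural crest genes called higher, DESeq2 called 4 and leaving out a library gave 6 to 10. DESeq2 called 3 epidermal and squamous genes against 5, and the cancer-testis count of 2 ran from 2 to 5 with each library left out. The cause of these shifts was not tested. DESeq2 also called fewer genes higher over all genes tested, 3460 against 4727 in the main fit. Every fit with a library left out called fewer as well. A lower list count under these settings therefore does not by itself set the list apart from other genes.

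Samples with the same replicate number did not deviate together (correlation 0.039). With 2 libraries per group, this value cannot show whether they shared a culture or a batch. With the replicate block, 5000 genes were called higher and 5023 lower, the members' median was 3.83 and 27 neighbors were higher. Against 26 neighbors called higher in the main fit, DESeq2 called 21, removal of the GC trend gave 23 and total count scaling 31. Over all genes tested, the main fit called 4727 higher, DESeq2 3460, removal of the GC trend 4539 and total count scaling 5324. The shifts are thus not particular to the neighbors. Control levels of 25 counts or fewer in all limit the precision of every fold, and 2 libraries per group limit how well the spread is known.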
